A study of Coprinopsis cinerea AmutBmut pab1-1 with 7 samples.

Results

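The 2 *cre1* mutant strains of the mushroom-forming fungus *Coprinopsis cinerea* were compared directly with each other, strain Δ*cre1*-43 (2 libraries) against strain Δ*cre1*-91 (2 libraries), which is 4 of the 7 libraries of the series and all 14242 genes of its count table. All 4 libraries were taken as labelled. The 3 libraries of the wild type showed which strain departed from its level. They also entered the fit, where they helped to set the spread behind the P values between the mutants. Both mutants are independent transformants of the same parent, the homokaryotic strain AmutBmut *pab1-1*, which carries mutated mating type loci and a defective *pab1* gene and is itself the wild type here. In both, Cas9 ribonucleoproteins and a split-marker cassette were used to replace *cre1* by a functional *pab1* gene, so the mutants share this marker and the wild type lacks it. Each strain is a single clone. The study reports that PCR screening and sequencing of the flanking fragments placed the marker at the *cre1* locus in both mutants. It also states that a small internal *cre1* fragment still amplified from both mutants when many PCR cycles were run. The band was still seen after oidiation of the strains. Its authors propose variable recombination of the cassette and unequal function of the ribonucleoproteins as the source, and ask for further work. They remain confident that both strains are deletion mutants, and cite for this the Quant-Seq results, which come from these same libraries. All colonies grew in the dark on cellophane over YMG medium with 0.2% glucose for 84 h at 28°C, and mycelium was harvested for Quant-Seq, an RNA-seq method that reads the 3′ ends of mRNAs. The sources call the libraries replicates without saying whether each came from its own colony, so P values measure the spread between these libraries, which may be technical.

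Cre1 and its relatives (CreA in *Aspergillus*, Mig1 in yeast) are C2H2 zinc finger repressors of carbon catabolite repression. While glucose is at hand they hold down genes for the use of other carbon sources, among them the secreted enzymes that break down plant cell walls. A pair of independent deletion strains is commonly kept so that a change found in both can be told from one carried by a single clone, and the genes on which the pair differ are the subject here.

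Assigned counts per library ran from 6232853 to 8459151 under the label Δ*cre1*-43, from 7977328 to 8514379 under the label Δ*cre1*-91 and from 10196878 to 10784958 in the wild type. The labels give no batch or date. The targeted gene did not separate the strains. *cre1* (scaffold 250, 3218 to 6556) stood at 8.71 and 8.16 CPM (counts scaled to a common library size, as used throughout) in the libraries labelled Δ*cre1*-43, at 8.50 and 6.27 in those labelled Δ*cre1*-91, and at 8.68, 7.89 and 11.3 in the wild type. The 3 groups overlapped, and the log2 difference between the mutants was 0.19 (standard error 0.30, edgeR adjusted P = 0.925). Counts per gene do not show where in the gene the reads fell, so they cannot check the deletion, and every direction given below is between libraries as labelled. The gene models on either side were not called between the mutants either. Protein 491156 had a log2 difference of 0.23 (edgeR adjusted P = 0.945). Protein 518081 rested on few reads, with deposited counts of 5 and 9.75 in Δ*cre1*-43, 5 and 0.5 in Δ*cre1*-91, and 0, 0 and 0.5 in the wild type. Its log2 difference of 1.58 between the mutants (standard error 1.33, edgeR adjusted P = 0.749) ranged from 0.60 to 6.18 over the alternatives, and on these counts edgeR called it above the wild type in Δ*cre1*-43 (adjusted P = 0.0222).

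Across the transcriptome, libraries of different mutants were little farther apart than replicate libraries of 1 mutant. For the 9100 genes whose mean exceeded 1 log2 CPM, the median absolute log2 ratio was 0.280 between the libraries labelled Δ*cre1*-43 and 0.257 between those labelled Δ*cre1*-91. The 4 ratios of a Δ*cre1*-43 library to a Δ*cre1*-91 library had medians from 0.277 to 0.330. The closest of these pairs, Δ*cre1*-43 replicate 1 with Δ*cre1*-91 replicate 2, was thus no farther apart than the Δ*cre1*-43 replicates were from each other. Wild-type replicates lay closer together, with medians from 0.160 to 0.222. A difference of at least 2-fold was seen for 5.92% of the genes between the Δ*cre1*-43 replicates, 4.45% between the Δ*cre1*-91 replicates, 1.59% to 3.49% between wild-type replicates and 5.91% to 7.96% between libraries of the mutants. The plot of these pairs shows the mutant replicates at or just below the range of the pairs between strains.

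**Figure D1:**
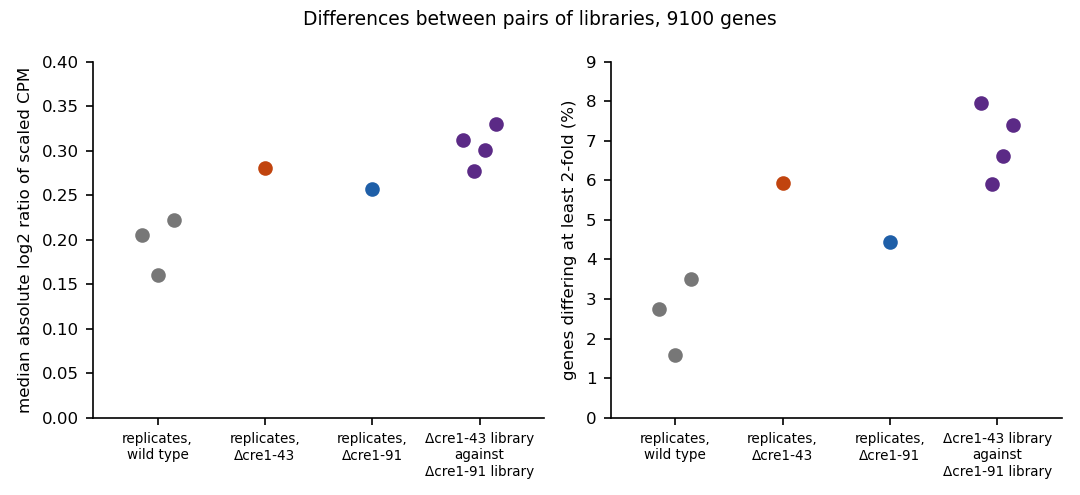
Each point is 1 pair of libraries over the 9100 genes whose mean exceeded 1 log2 CPM, as the median absolute log2 ratio of scaled CPM (left) and the percentage of genes differing at least 2-fold (right). The 4 pairs between the mutants lie from 0.277 to 0.330 on the left, the Δ*cre1*-43 replicates at 0.280, the Δ*cre1*-91 replicates at 0.257 and the wild-type replicates from 0.160 to 0.222.

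Of the 14242 genes, 35 were called between the mutants, which is 0.246% of those tested, at a Benjamini-Hochberg adjusted P value of at most 0.05 and at least a 2-fold difference in edgeR's quasi-likelihood test. In the libraries labelled Δ*cre1*-43, 25 of these were higher (0.176% of all genes) and 10 were lower (0.0702%). Their differences were moderate. The genes higher in Δ*cre1*-43 differed 2.02-fold to 8.32-fold with a median of 2.98, and those higher in Δ*cre1*-91 differed 2.18-fold to 4.43-fold with a median of 2.67. For comparison, the same test called 993 genes (6.97%) between Δ*cre1*-43 and the wild type and 1185 (8.32%) between Δ*cre1*-91 and the wild type, contrasts that share the wild-type libraries with each other. Of the former 4.82% of all genes were higher and 2.16% lower than the wild type, and of the latter 4.97% and 3.35%. At an unadjusted P value of at most 0.05, without a limit on the fold, 1594 genes (11.2%) differed between the mutants, 879 of them higher in Δ*cre1*-43 (6.17%) and 715 lower (5.02%). The libraries of the mutants did not overlap in any of the 35 called genes, which picking them on these same libraries made nearly certain. Over all genes 33.4% did not overlap (16.6% higher and 16.8% lower in Δ*cre1*-43). The list is sensitive to the fit. It was empty with limma voom (1897 genes at an unadjusted P of at most 0.05) and after a filter on low counts (1408 genes), where all 35 still had an unadjusted P of at most 0.05, and it held 72 genes with DESeq2, among them 34 of the 35. Without Δ*cre1*-43 replicate 1, Δ*cre1*-91 replicate 1 or Δ*cre1*-91 replicate 2 it was empty, and it held 13 genes without Δ*cre1*-43 replicate 2, 5 without wild-type replicate 2 and 105 without wild-type replicate 3. None of the 35 changed sign in any alternative, which their selection on these same libraries made likely.

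**Figure D2:**
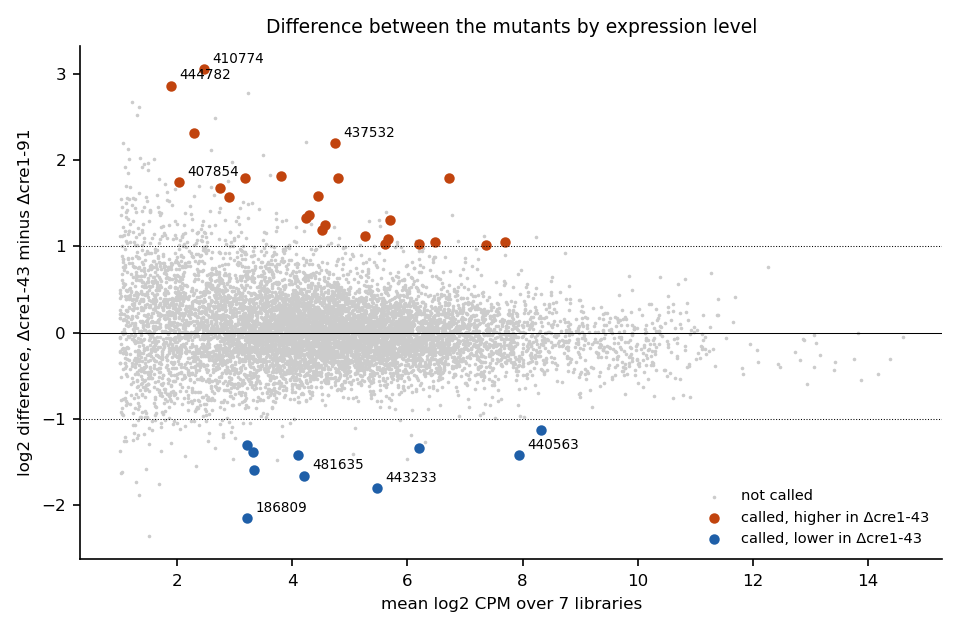
Log2 difference between the mutants (Δ*cre1*-43 minus Δ*cre1*-91, edgeR) against the mean log2 CPM over 7 libraries for the 9100 genes whose mean exceeded 1, with the called genes in colour and the 2-fold limits dotted. Of the 35 called genes, 24 of the 25 higher in Δ*cre1*-43 and all 10 lower are drawn, and the other, 394420, has a mean below 1.

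The 10 genes higher in the libraries labelled Δ*cre1*-91 were mostly genes that stood above the wild type in both mutants, and further above it in Δ*cre1*-91. This held for 8 of the 10, all of them also called above the wild type in each mutant. The most abundant was protein 440563 (scaffold 172, 19223 to 20314), which no annotation used here names. It stood at 416 and 705 CPM in Δ*cre1*-43, 1402 and 1591 in Δ*cre1*-91, and 48.5, 48.8 and 33.5 in the wild type. Its mutant libraries lay far above every wild-type library and did not overlap with each other, although the Δ*cre1*-43 replicates themselves were well apart. The log2 difference between the mutants was -1.42 (standard error 0.22, edgeR adjusted P = 0.0126).

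Protein 186809 (scaffold 38, 60583 to 61619) is annotated as conidiation-specific protein 6, a family named for a *Neurospora crassa* gene expressed during conidiation. It stood at 4.81 and 13.2 CPM in Δ*cre1*-43, 36.0 and 45.3 in Δ*cre1*-91, and 4.62, 4.28 and 2.51 in the wild type. Both Δ*cre1*-91 libraries were high, while Δ*cre1*-43 replicate 1 lay next to the highest wild-type library. The log2 difference of -2.15 (standard error 0.35, edgeR adjusted P = 0.0126) was the largest among the genes higher in Δ*cre1*-91. Its model overlaps models 364142 and 186828, so reads may be shared.

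Protein 369576 (scaffold 86, 88340 to 91256) carries a ricin B lectin domain, a fold that binds sugars. It stood at 12.3 and 21.9 CPM in Δ*cre1*-43, 58.3 and 45.6 in Δ*cre1*-91, and 1.66, 2.34 and 3.16 in the wild type. The 3 strains did not overlap, and the log2 difference between the mutants was -1.59 (standard error 0.28, edgeR adjusted P = 0.0171). Protein 273601 (scaffold 81, 14728 to 16599) has the domains of an alcohol dehydrogenase-like enoylreductase, an oxidoreductase type that also occurs in polyketide synthases. It was abundant, at 306 and 529.8 CPM in Δ*cre1*-43, 901 and 924 in Δ*cre1*-91, and 115, 130.2 and 164 in the wild type. The strains again formed 3 separate levels, with a log2 difference of -1.13 between the mutants (standard error 0.22, edgeR adjusted P = 0.0319).

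Another 4 genes without annotation had the same order, with the wild type lowest and Δ*cre1*-91 highest. Protein 481635 (scaffold 189) stood at 15.6 and 25.3 CPM in Δ*cre1*-43, 73.3 and 56.2 in Δ*cre1*-91, and 5.54, 8.86 and 8.63 in the wild type (log2 difference -1.65). Protein 354495 (scaffold 2) stood at 76.8 and 138 CPM in Δ*cre1*-43, 274 and 270.0 in Δ*cre1*-91, and 25.4, 23.6 and 24.97 in the wild type (log2 difference -1.34). In both genes no library of one strain reached the range of another. Protein 465073 (scaffold 19) had 11.9 and 15.5 CPM in Δ*cre1*-43, 37.2 and 34.2 in Δ*cre1*-91, and 3.42, 3.12 and 3.43 in the wild type (log2 difference -1.38). Protein 488000 (scaffold 71) had 13.8 and 14.4 CPM in Δ*cre1*-43, 27.0 and 42.7 in Δ*cre1*-91, and 3.05, 2.53 and 2.88 in the wild type (log2 difference -1.30). Standard errors of these 4 lay between 0.22 and 0.26.

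The remaining genes higher in Δ*cre1*-91 departed from the wild type in another way. Protein 443233 (scaffold 248, 37135 to 39089) had the smallest P value of the whole comparison and was low only in the Δ*cre1*-43 libraries. It stood at 18.02 and 19.98 CPM in Δ*cre1*-43, 75.9 and 56.6 in Δ*cre1*-91, and 49.3, 74.4 and 58.7 in the wild type, so that Δ*cre1*-91 and the wild type overlapped. The log2 difference between the mutants was -1.80 (standard error 0.23, edgeR adjusted P = 0.00303), and edgeR called the gene lower in Δ*cre1*-43 than in the wild type (log2 difference -1.67, adjusted P = 1.87e-05). Protein 371744 (scaffold 113) had 11.4 and 11.2 CPM in Δ*cre1*-43, 32.7 and 27.6 in Δ*cre1*-91, and 14.97, 12.7 and 18.8 in the wild type, which lay between the mutants. Its log2 difference was -1.41 (standard error 0.25, edgeR adjusted P = 0.0171).

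Among the 25 genes higher in the libraries labelled Δ*cre1*-43 the wild type had no common place. In 12 of them the fitted level of Δ*cre1*-43 was farther from the wild type than that of Δ*cre1*-91, and in 13 the reverse held, whereas Δ*cre1*-91 was the farther strain in 9 of the 10 genes above. The farther strain was not counted over all genes, of which 8.32% were called against the wild type in Δ*cre1*-91 and 6.97% in Δ*cre1*-43. Protein 410774 (scaffold 783, 1118 to 1826) had the largest difference of all called genes, with 28.8 and 19.2 CPM in Δ*cre1*-43, 3.55 and 2.18 in Δ*cre1*-91, and 2.22, 6.72 and 1.95 in the wild type. It was high only in the Δ*cre1*-43 libraries (log2 difference 3.06, standard error 0.47, edgeR adjusted P = 0.0126). Its model overlaps model 436714. Protein 394420 (scaffold 39) had a similar order at a lower level, with 7.36 and 7.69 CPM in Δ*cre1*-43, 1.40 and 1.15 in Δ*cre1*-91, and 0.554, 1.07 and 0.557 in the wild type (log2 difference 2.55).

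Protein 364990 (scaffold 44, 144173 to 146820) is annotated as an alpha subunit of a heterotrimeric G protein, the part that binds guanine nucleotides and passes on signals from membrane receptors. It stood at 12.0 and 13.7 CPM in Δ*cre1*-43, 4.06 and 3.97 in Δ*cre1*-91, and 5.73, 5.36 and 6.31 in the wild type. The replicates of each strain were close together and the wild type lay between the mutants. The log2 difference between the mutants was 1.68 (standard error 0.30, edgeR adjusted P = 0.0222). Against the wild type it was 1.15 in Δ*cre1*-43 (edgeR adjusted P = 0.00428) and -0.53 in Δ*cre1*-91 (adjusted P = 0.243). No other gene model overlaps it.

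Protein 407854 (scaffold 276, 5203 to 6353) was nearly silent in the wild type and high in both mutants. It stood at 50.8 and 42.0 CPM in Δ*cre1*-43, 16.2 and 11.4 in Δ*cre1*-91, and 0.0924, 0.682 and 0.186 in the wild type (log2 difference between the mutants 1.74, edgeR adjusted P = 0.0126). It was the only called gene with Δ*cre1*-43 on top that edgeR also called above the wild type in both mutants. Its model overlaps model 443932.

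Other genes were lower than the wild type in the mutants, and lowest in Δ*cre1*-91. Protein 499145 (scaffold 109, 6418 to 8668) stood at 96.1 and 49.0 CPM in Δ*cre1*-43, 20.04 and 21.8 in Δ*cre1*-91, and 570.4, 438 and 287 in the wild type (log2 difference between the mutants 1.79, standard error 0.30, edgeR adjusted P = 0.0126). The strains did not overlap, although the Δ*cre1*-43 replicates were nearly as far apart from each other as the lower of them was from Δ*cre1*-91. Protein 444782 (scaffold 303) had 6.76 and 4.61 CPM in Δ*cre1*-43, 0.507 and 1.02 in Δ*cre1*-91, and 7.94, 7.30 and 7.24 in the wild type (log2 difference 2.86), and was called below the wild type in Δ*cre1*-91 alone. Protein 559350 (scaffold 109) had 31.5 and 20.8 CPM in Δ*cre1*-43, 7.99 and 9.34 in Δ*cre1*-91, and 44.2, 43.7 and 24.5 in the wild type (log2 difference 1.59), and there Δ*cre1*-43 overlapped with the wild type.

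In the next 3 genes Δ*cre1*-91 lay below every wild-type library. Protein 437532 (scaffold 109, 54001 to 55088) had 56.8 and 53.9 CPM in Δ*cre1*-43, 10.7 and 13.4 in Δ*cre1*-91, and 41.4, 35.1 and 14.4 in the wild type (log2 difference 2.20, standard error 0.34, edgeR adjusted P = 0.0126). Wild-type replicate 3 lay next to the Δ*cre1*-91 libraries and the other two nearer to Δ*cre1*-43. Protein 441344 (scaffold 195) had 34.2 and 16.9 CPM in Δ*cre1*-43, 5.96 and 8.45 in Δ*cre1*-91, and 18.8, 12.2 and 14.2 in the wild type (log2 difference 1.82). Protein 462907 (scaffold 123) had 33.8 and 73.8 CPM in Δ*cre1*-43, 20.4 and 10.6 in Δ*cre1*-91, and 28.4, 35.4 and 23.4 in the wild type (log2 difference 1.80). In the latter pair the Δ*cre1*-43 replicates were about 2-fold apart, and the lower one lay among the wild-type libraries.

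The other 15 genes higher in Δ*cre1*-43 differed 2.02-fold to 4.96-fold, with edgeR adjusted P values from 0.0319 to 0.0485. They are proteins 339618, 365827, 376045, 487372, 544540, 361063, 22170, 464190, 414607, 432567, 358170, 91683, 376268, 419857 and 538158, and a pair of them is annotated. Protein 358170 (scaffold 10) is subunit Dad3 of the DASH complex, which in yeast ties kinetochores to the microtubules of the mitotic spindle. It had 36.5 and 46.8 CPM in Δ*cre1*-43, 21.9 and 14.6 in Δ*cre1*-91, and 15.2, 22.2 and 17.7 in the wild type (log2 difference 1.19), so only Δ*cre1*-43 stood apart. Protein 361063 (scaffold 21) is a serine/threonine kinase with the C-terminal domain of AGC kinases, the family of protein kinase A. It had 17.1 and 29.9 CPM in Δ*cre1*-43, 10.5 and 7.81 in Δ*cre1*-91, and 27.9, 33.0 and 27.3 in the wild type (log2 difference 1.37), so only Δ*cre1*-91 lay below the wild type.

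**Figure D3:**
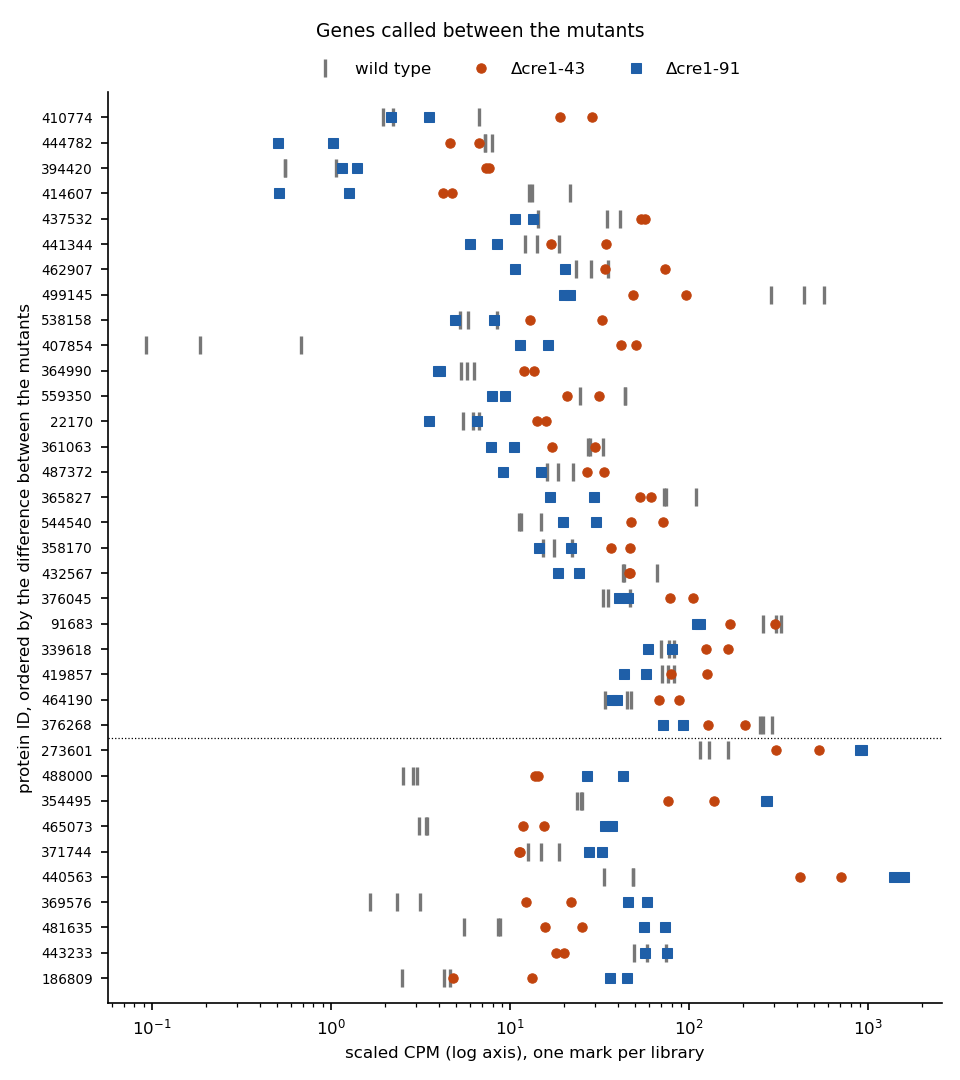
Scaled CPM on a log axis of the 35 called genes in each library, ordered from the largest difference in favour of Δ*cre1*-43 at the top to the largest in favour of Δ*cre1*-91 at the bottom, with the dotted line between the 25 and the 10. In 8 of the 10 genes below the line all mutant libraries lie above the wild type, while above the line the wild type takes every place between lowest and highest.

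Counted by library, the wild type lay below both mutants in 3 of the 25 genes higher in Δ*cre1*-43, above both in 5 and between them in 3. In 7 it overlapped with Δ*cre1*-91 alone, with Δ*cre1*-43 above it, and in 7 it overlapped with Δ*cre1*-43 alone, with Δ*cre1*-91 below it. Neither these placings nor those of the 10 genes lower in Δ*cre1*-43 were counted over all genes. They are therefore not shown to be particular to the called genes. By the calls against the wild type, 8 of the 25 were above it in Δ*cre1*-43 and not called in Δ*cre1*-91, and 9 were below it in Δ*cre1*-91 and not called in Δ*cre1*-43. Another 5 were called in neither. Of the 35 genes, 20 overlap another gene model, 14 of them on the opposite strand. Among all 14242 models 8476 overlap another, 5390 of them on the opposite strand. The 20 include every annotated gene but 364990, and also 465073, 371744, 444782 and 394420. The strand used in counting is not given in the sources used here, so a difference in the 20 could belong to either model. Annotation was at hand for 6 of the 35, from a list of domains that was available only in part.

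A further 16 genes passed the adjusted P value with less than a 2-fold difference, 4 of them 1.70-fold to 1.93-fold higher in Δ*cre1*-43 and 12 of them 1.47-fold to 1.98-fold higher in Δ*cre1*-91. With them 51 genes (0.358%) passed, 29 higher in Δ*cre1*-43 (0.204%) and 22 lower (0.154%). Many of these are abundant, and the 3 described here were chosen after their values were seen. Protein 264276 is glyceraldehyde-3-phosphate dehydrogenase, an enzyme of glycolysis. It stood at 1618 and 2113 CPM in Δ*cre1*-43, 3291 and 2970 in Δ*cre1*-91, and 1398, 1274 and 1643 in the wild type (log2 difference -0.75, standard error 0.16, edgeR adjusted P = 0.0409). Protein 419076, which has no annotation here, stood at 8057 and 6993 CPM in Δ*cre1*-43, 4628 and 4224 in Δ*cre1*-91, and 3758, 4280 and 4008 in the wild type (log2 difference 0.77, standard error 0.12, edgeR adjusted P = 0.0126). Protein 32193, with leucine-rich repeats, had 41.0 and 46.4 CPM in Δ*cre1*-43, 85.5 and 75.8 in Δ*cre1*-91, and 51.9, 45.1 and 54.9 in the wild type (log2 difference -0.88). In the first and the last Δ*cre1*-91 was the strain away from the wild type, and in 419076 it was Δ*cre1*-43.

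The 5 most abundant genes with at least a 2-fold difference and an unadjusted P value of at most 0.05 (479 genes, 3.36%, with 334 or 2.35% higher and 145 or 1.02% lower in Δ*cre1*-43) were 440563, 178286, 273601, 91683 and 499145. Only 178286 (scaffold 35, 85021 to 86879) was not among the called genes. It is annotated as related to L-tryptophan decarboxylase PsiD and phosphatidylserine decarboxylase. It stood at 253 and 165 CPM in Δ*cre1*-43, 120.1 and 73.5 in Δ*cre1*-91, and 818, 683 and 1039 in the wild type. Both mutants lay below the wild type without overlap, and Δ*cre1*-91 lay lowest (log2 difference 1.11, standard error 0.24, edgeR adjusted P = 0.0540). Protein 91683 (scaffold 190) stood at 301 and 169.7 CPM in Δ*cre1*-43, 111 and 115 in Δ*cre1*-91, and 305, 326 and 259 in the wild type (log2 difference 1.06, edgeR adjusted P = 0.0421).

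None of the 35 called genes is in the lists of plant cell wall-degrading enzymes (PCWDE), fungal cell wall enzymes, transcription factors and transporters that the study drew from these same libraries against the wild type. The lists are therefore not independent of the mutant libraries compared here. PCWDE genes are the usual targets of carbon catabolite repression. Their median log2 difference between the mutants was 0.383 over 82 genes, higher in Δ*cre1*-43, against 0.000895 over the 9100 genes above 1 log2 CPM. At an unadjusted P value of at most 0.05, 24 were higher in Δ*cre1*-43 and 8 lower, together 39.0% of the list, where 11.2% of all genes and 15.3% of those above 1 log2 CPM reached it. The libraries of the mutants did not overlap in 41 members higher in Δ*cre1*-43 and 18 lower, together 72.0%, against 33.4% of all genes and 41.7% of those above 1 log2 CPM. With genes at the floor of 3 counts set to their bound the median was the same. Against the wild type the list's median log2 differences were 2.41 in Δ*cre1*-43 and 2.26 in Δ*cre1*-91. Between the mutants its median ranged from 0.228 to 0.502 over the alternatives, and the 32 members at that unadjusted P became 21 without Δ*cre1*-43 replicate 2 and 19 without Δ*cre1*-91 replicate 2.

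In the 42 genes assigned to cellulose the median log2 difference was 0.412, with 15 higher in Δ*cre1*-43 at an unadjusted P value of at most 0.05 and 4 lower, together 45.2%, beside 6.17% higher and 5.02% lower among all genes and 15.3% together among those above 1 log2 CPM. Without Δ*cre1*-43 replicate 2 this median was 0.203 and without Δ*cre1*-91 replicate 2 it was 0.130, and in each case 8 members reached that P in place of 19. The member with the smallest P value was 495979 (scaffold 31, 94933 to 96574), a lytic polysaccharide monooxygenase of family AA9, enzymes that cleave cellulose chains by oxidation. It stood at 19.4 and 24.0 CPM in Δ*cre1*-43, 9.64 and 6.14 in Δ*cre1*-91, and 0.185, 0.682 and 0.371 in the wild type. Both mutants lay far above the wild type, with Δ*cre1*-43 on top, and the log2 difference between them was 1.46 (standard error 0.32, edgeR adjusted P = 0.0578). Of the 15 AA9 genes 6 were higher in Δ*cre1*-43 at that unadjusted P and 1 was lower, and their median was 0.488. The median was 0.205 without Δ*cre1*-43 replicate 2, with 2 members at that P, and without Δ*cre1*-91 replicate 2 it was 0.336, with 1 member. The member lower in Δ*cre1*-43 was 362458, with 30.2 and 51.3 CPM against 63.3 and 60.7 in Δ*cre1*-91, and 8.68, 12.3 and 14.5 in the wild type (log2 difference -0.60, edgeR adjusted P = 0.348).

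Cellobiohydrolases of families GH6 and GH7 release cellobiose from the ends of cellulose chains. In GH6 protein 371412 (scaffold 109, 39067 to 40784) the libraries stood at 71.2 and 74.7 CPM in Δ*cre1*-43, 44.8 and 30.7 in Δ*cre1*-91, and 0.462, 0.682 and 1.02 in the wild type (log2 difference 0.95, standard error 0.22, edgeR adjusted P = 0.0612). GH6 proteins 437020 and 546855 had log2 differences of 0.71 and 0.57 (edgeR adjusted P = 0.251 and 0.222), while the fourth GH6 gene, 491915, had 41.2 and 67.9 CPM in Δ*cre1*-43 and 75.9 and 33.3 in Δ*cre1*-91, ranges that overlapped. So 3 of the 4 GH6 genes had both Δ*cre1*-43 libraries above both Δ*cre1*-91 libraries, as did 16.6% of all genes. The pair of GH7 genes went opposite ways. GH7 protein 462750 stood at 215 and 174 CPM in Δ*cre1*-43, 139 and 75.8 in Δ*cre1*-91, and 3.79, 2.63 and 3.99 in the wild type (log2 difference 0.86, standard error 0.24, edgeR adjusted P = 0.130). The other GH7 gene, 462752, had 3.15 and 1.54 CPM in Δ*cre1*-43, 5.33 and 3.46 in Δ*cre1*-91, and 1.57, 1.27 and 1.48 in the wild type (log2 difference -0.93, standard error 0.49, edgeR adjusted P = 0.509). The endoglucanase-type GH44 protein 416998 had 26.7 and 17.5 CPM in Δ*cre1*-43, 9.89 and 9.73 in Δ*cre1*-91, and 1.20, 0.779 and 1.58 in the wild type (log2 difference 1.17, standard error 0.30, edgeR adjusted P = 0.0962). The models of 495979, 371412 and 416998 each overlap another. In 371412, 462750 and 416998 the mutants did not overlap, and both lay above the wild type by far more than they differed. In 462752 the mutants did not overlap either, but Δ*cre1*-43 overlapped with the wild type.

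Of the 37 hemicellulose genes 8 were higher in Δ*cre1*-43 and 5 lower at an unadjusted P value of at most 0.05, together 35.1%. Some members, such as 368921, are also in the cellulose list, so these are not separate sets of genes. Of all genes 11.2% reached that P, and 15.3% of those above 1 log2 CPM. The median log2 difference of the list was 0.020. This median depended on the libraries and the scaling. It was 0.301 without Δ*cre1*-91 replicate 1, 0.108 without Δ*cre1*-43 replicate 2, 0.100 without Δ*cre1*-43 replicate 1 and -0.024 without Δ*cre1*-91 replicate 2, and it was 0.141 with library size only and 0.122 after thinning to equal depth. The 13 members at that P became 8 without replicate 1 of either mutant. Members of 1 family went opposite ways, as in GH10, which cuts xylan chains. GH10 protein 468708 (scaffold 35) had 6.31 and 6.62 CPM in Δ*cre1*-43, 16.1 and 12.9 in Δ*cre1*-91, and 2.31, 2.92 and 3.341 in the wild type (log2 difference -1.16, standard error 0.30, edgeR adjusted P = 0.101). GH10 protein 368921, which also has a cellulose-binding module (CBM1), had 17.6 and 21.6 CPM in Δ*cre1*-43 and 9.89 and 11.8 in Δ*cre1*-91, with 0.186 CPM in wild-type replicate 3 and 0 in the others (log2 difference 0.86, standard error 0.31, edgeR adjusted P = 0.281). The 5 GH11 xylanase genes held 1 at that unadjusted P, lower in Δ*cre1*-43 on few counts. Of 11 pectin genes 1 was higher in Δ*cre1*-43 and 0 lower at that unadjusted P (median 0.287), of 4 lignin genes 1 and 0, and of 4 expansin genes 1 and 0.

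**Figure D4:**
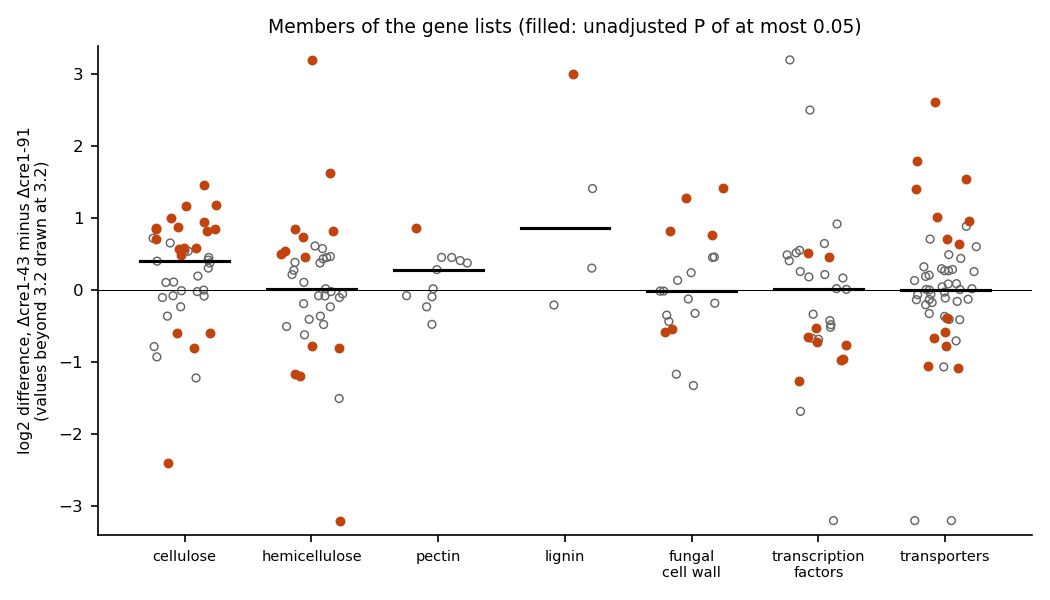
Log2 difference between the mutants (Δ*cre1*-43 minus Δ*cre1*-91, edgeR) of the genes in the study's lists except the 4 expansin genes. Points are filled where the unadjusted P value is at most 0.05, and the median of each list is a bar. A gene in more than 1 list is drawn in each. The cellulose genes centre at 0.412 and the hemicellulose genes at 0.020. The points at the upper and lower edge rest on few counts.

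The 19 fungal cell wall genes had a median log2 difference of -0.012. At an unadjusted P value of at most 0.05 were 11.2% of all genes and 15.3% of those above 1 log2 CPM. Of the list, 4 were higher in Δ*cre1*-43 and 2 lower, together 31.6%. These 6 became 3 without Δ*cre1*-91 replicate 1. GH152 protein 496344 (scaffold 38, 18354 to 20207), of a family that includes thaumatin-like proteins, had 7.66 and 7.33 CPM in Δ*cre1*-43, 3.68 and 1.92 in Δ*cre1*-91, and 9.33, 8.28 and 7.15 in the wild type (log2 difference 1.41, standard error 0.36, edgeR adjusted P = 0.0971). Only Δ*cre1*-91 lay apart from the wild type in that gene. AA3_2 proteins 369851 and 446127, of a family of flavin-dependent oxidoreductases, had log2 differences of -0.54 and 0.76 (edgeR adjusted P = 0.168 and 0.222).

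Among the 31 transcription factor genes 7 were lower in Δ*cre1*-43 and 2 higher at an unadjusted P value of at most 0.05, together 29.0%, beside 5.02% lower and 6.17% higher among all genes and 15.3% together among those above 1 log2 CPM. These 9 became 4 without Δ*cre1*-91 replicate 2. The median was 0.012, or -0.067 with genes at the floor set to their bound and 3 genes at the floor in both mutants left out. It was -0.206 without Δ*cre1*-43 replicate 1 and -0.151 without Δ*cre1*-91 replicate 1. Protein 494425 (scaffold 13, 101074 to 103236) belongs to the Gti1/Pac2 family, named for fission yeast regulators of gluconate uptake and of sexual development. It stood at 64.0 and 68.9 CPM in Δ*cre1*-43, 153 and 167 in Δ*cre1*-91, and 68.4, 30.5 and 84.5 in the wild type. Both Δ*cre1*-91 libraries were above all others, and Δ*cre1*-43 lay within the wild-type range (log2 difference -1.27, standard error 0.30, edgeR adjusted P = 0.0678). Protein 398576, with the copper fist DNA-binding domain of copper-sensing regulators, had 28.1 CPM in each Δ*cre1*-43 library, 42.6 and 45.8 in Δ*cre1*-91, and 19.1, 19.7 and 20.6 in the wild type (log2 difference -0.65, edgeR adjusted P = 0.157). HMG box protein 477121 had 43.0 and 23.9 CPM in Δ*cre1*-43, 54.8 and 57.5 in Δ*cre1*-91, and 21.5, 21.1 and 19.7 in the wild type (log2 difference -0.75, edgeR adjusted P = 0.173). By contrast the gene listed as the ortholog of ROC1, a regulator of cellulose degradation in *Schizophyllum commune*, had 56.9 and 53.5 CPM in Δ*cre1*-43 and 58.9 and 50.5 in Δ*cre1*-91, beside 22.6, 25.3 and 20.7 in the wild type (log2 difference 0.0123, standard error 0.19).

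The 54 plasma membrane transporters were split evenly, with a median of 0.0104. At an unadjusted P value of at most 0.05, 8 were higher in Δ*cre1*-43 and 6 lower, together 25.9%. Of all genes 11.2% reached that P, and 15.3% of those above 1 log2 CPM. Of 19 major facilitator genes, which move sugars and other small solutes, 3 were higher and 2 lower. Protein 466228 (scaffold 226, 6295 to 8764) had 19.98 and 22.5 CPM in Δ*cre1*-43, 8.12 and 12.9 in Δ*cre1*-91, and 51.0, 51.5 and 41.4 in the wild type (log2 difference 1.01, standard error 0.24, edgeR adjusted P = 0.0745). Protein 500507 had 1.05 and 2.13 CPM in Δ*cre1*-43, 0.254 and 0.256 in Δ*cre1*-91, and 18.8, 12.1 and 7.98 in the wild type (edgeR adjusted P = 0.141). Both are major facilitators that lay below the wild type in each mutant, and lowest in Δ*cre1*-91. Protein 445110, an EamA domain transporter, went the other way, with 22.4 and 18.3 CPM in Δ*cre1*-43, 42.1 and 43.5 in Δ*cre1*-91, and 3.42, 5.16 and 7.52 in the wild type (log2 difference -1.08, standard error 0.27, edgeR adjusted P = 0.0868). The 7 ABC transporters had 1 in each direction, the 5 oligopeptide transporters none, and the 23 others 4 higher and 3 lower. These subgroups and the major facilitator genes were sorted here by their listed domains, so their sizes can differ from the study's own counts.

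Genes counted in only 1 of the mutants were few and low. In 9 genes 1 mutant had at most 3 counts in both libraries while the other had at least 10 in both, and in 0 genes did the other reach 20. At the floor in Δ*cre1*-91 were 379289, 366673, 422173, 519684 and 460046, which were at least 5.20-fold, 4.90-fold, 4.21-fold, 4.13-fold and 4.02-fold higher in Δ*cre1*-43, against a floor of 3 counts per library. Of these 366673 is annotated as an AGC-type protein kinase. At the floor in Δ*cre1*-43 were 443013, 220209, 464398 and 462581, at least 4.75-fold, 4.27-fold, 3.80-fold and 3.64-fold higher in Δ*cre1*-91, the last of them a CBM1 protein of the cellulose list. None of the 9 was called, with edgeR adjusted P values from 0.115 to 0.328, and only 443013 was also at the floor in the wild type. Detection in these genes rests on a few reads per library.

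Runs of at least 3 neighbouring models that differed in the same direction were found in 1 place. On scaffold 172 the neighbouring models 440560, 440561 and 440563 were all lower in Δ*cre1*-43 by at least 2-fold at an unadjusted P value of at most 0.05. Protein 440560 had 1.95 and 0.591 CPM in Δ*cre1*-43 and 4.31 and 4.22 in Δ*cre1*-91, and 440561 had 4.06 and 7.33 against 12.9 and 12.0. The abundant 440563 follows them, and 440560 and 440561 overlap on opposite strands, so their reads cannot be told apart without strand. Without the limit on the fold there were 9 such runs with 29 genes in all, the longest with 5 genes on scaffold 9. Scaffold 109 held 3 of the called genes (437532, 499145 and 559350) and scaffold 190 held 2 (376045 and 91683). On scaffold 109, 437532 (54001 to 55088) and 559350 (56064 to 57125) lay close together, both higher in Δ*cre1*-43. A pair was too short to count as a run.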

How the data were processed

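Read counts of 2 Δ*cre1*-43, 2 Δ*cre1*-91 and 3 wild-type Quant-Seq libraries, grouped by label, were analysed. The authors cleaned reads with bbduk, aligned them with STAR 2.6.1a to the Joint Genome Institute genome of the parent strain and ran featureCounts on coding sequences extended by 400 bp past their 3′ ends. What they deposited are estimated counts, 20.3% of them not whole, so reads must have been split in some way that the sources used here do not give. Whole counts had been foreseen, and the values were rounded before testing, with 0.5 going to the even number. A second deposited table, of CPM, was not used. Gene positions follow the deposited models (1-based).

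In R 4.3.3, edgeR 4.0.16 (TMM, estimateDisp, glmQLFit, glmQLFTest) was run on all 7 libraries and 14242 genes (13439 with a count), with 1 coefficient per strain and no filter on low counts. Benjamini-Hochberg adjustment covered every gene. Calls needed an adjusted P of at most 0.05 and a 2-fold difference. Differences are Δ*cre1*-43 minus Δ*cre1*-91, and the standard error is the coefficient over the square root of F. CPM refers to TMM-scaled library size, and 3 counts were 0.355 to 0.451 CPM in the mutant libraries, a floor that covers counting error only. Replicates of each strain differed by more than counting noise (chi-square per degree of freedom 11.8 to 20.2).

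Tried besides were limma 3.58.1 voom, DESeq2 1.42.0, 3 other scalings, filterByExpr, mutant libraries only, robust priors, a replicate block, thinning and the omission of each library. A crossed block and unrounded values were added once the data had been seen. The fits were tested on simulated counts. The text names every called gene (the 10 smallest P values in each direction with all libraries), the 3 smallest P values per list, *cre1* and its neighbours, genes at the floor in 1 mutant, runs of at least 3 neighbours, the 5 most abundant genes past 2-fold and an unadjusted P of 0.05, and GH6, GH7, AA9, GH10, GH11 and ROC1 genes as examples. Members and gene lists, the latter compiled by the study, were chosen with earlier results of these data known. The transporter subgroups were sorted here by domain description. Domain annotation covered part of the genes. A gene table of another *C. cinerea* strain could not be matched to these identifiers.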

Additional observations from a re-analysis of the deposited data

Results flagged for a closer look

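In 4 called genes every library labelled Δ*cre1*-43 lay on one side of all wild-type libraries and every library labelled Δ*cre1*-91 on the other. Picking genes by their difference between the mutants favours this order, and its share over all genes was not counted. It was also seen outside the called genes, as in protein 511951, which was 1.90-fold higher in Δ*cre1*-43. In 3 of the 4 called genes Δ*cre1*-43 was above and Δ*cre1*-91 below the wild type. These were protein 437532 (log2 difference between the mutants 2.20), the G protein alpha subunit 364990 (1.68) and protein 487372 (1.33). In protein 371744 the order was the reverse (-1.41). The difference itself was tested for all 4 (edgeR adjusted P = 0.0126, 0.0222, 0.0319 and 0.0171, in this order). Protein 487372 (scaffold 53, 101829 to 104574) had 27.0 and 33.5 CPM in Δ*cre1*-43, 14.8 and 9.21 in Δ*cre1*-91, and 16.2, 22.5 and 18.6 in the wild type, and its model overlaps model 396118. Against the wild type only 437532 in Δ*cre1*-91 and 364990 in Δ*cre1*-43 were called.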

How the results depend on the processing

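The 35 calls (25 higher and 10 lower in Δ*cre1*-43) became 0 with limma voom (0 and 0) and 0 after the filter on low counts (0 and 0, with 10128 genes left), with smallest adjusted P values of 0.188 and 0.0938. They became 72 (54 and 18) with DESeq2, 106 (93 and 13) with library size only, 55 (41 and 14) with upper quartile scaling, 101 (78 and 23) with the mutant libraries alone and 74 (57 and 17) without rounding, the last including all 35. Library size scaling shifted the median gene by 0.117 on the log2 scale, and 87.7% of its calls were higher in Δ*cre1*-43 against 71.4% in the main fit. Leaving out 1 library gave 0 to 105 calls, 0 to 82 higher and 0 to 23 lower. Where a mutant library is left out, the lone one is assumed to vary like the other groups. The cause of these changes was not tested.

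With the replicate number as a block, on the 4 mutant libraries, there were 82 calls (59 and 23), 32 of the 35 among them, and 872 genes at an unadjusted P of at most 0.05. Same-numbered libraries did not deviate together (r = -0.2146 across 9100 genes, which are not independent), so the numbers are not shown to pair the libraries. The crossed pairing, added after seeing the data, gave 147 calls (108 and 39).

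With library size only, the median log2 difference was 0.50 for PCWDE, 0.11 for fungal cell wall genes, 0.13 for transporters and 0.14 for hemicellulose genes, the last 0.12 after thinning. Leaving out 1 library gave medians of 0.23 to 0.42 for PCWDE, 0.13 to 0.52 for cellulose, -0.024 to 0.30 for hemicellulose, 0.084 to 0.29 for pectin, 0.21 to 0.57 for AA9, -0.21 to 0.012 for transcription factors and 0.0098 to 0.076 for transporters. Requiring 20 counts left 0 genes at the floor in 1 mutant, and there were 9 runs of neighbours without the limit on the fold and 0 of at least 4 genes. Of the 35 called genes 0 changed sign, which their selection made likely, and each was called in 9 to 13 of 19 alternatives. Among the 55 other named genes 11 were called in at least 1 alternative and 7 changed sign. The depth of these libraries leaves genes at a few counts without a usable ratio.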

Other observations

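Of the 1955 annotated genes outside the lists, a few that did not pass the adjusted threshold are described here, chosen after their values were seen. Protein 260659 (scaffold 73), annotated as a cytochrome b245 heavy chain with a ferredoxin-NADP reductase domain, the make-up of NADPH oxidases, had 367 and 405 CPM in Δ*cre1*-43, 636 and 622 in Δ*cre1*-91, and 565, 492 and 521 in the wild type (log2 difference -0.70, edgeR adjusted P = 0.0552). The chitin synthase 15443 (scaffold 106), of the enzymes that make the chitin of the fungal wall, had 719 and 803 CPM in Δ*cre1*-43, 1099 and 1256 in Δ*cre1*-91, and 1363, 1308 and 1240 in the wild type (log2 difference -0.63, edgeR adjusted P = 0.0594). In both genes the Δ*cre1*-43 libraries lay below all others, and in both the model overlaps another.

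A second gene with the PsiD-like decarboxylase annotation, 178424, lies near 178286 on scaffold 35 (74871 to 76738). It had 202 and 94.4 CPM in Δ*cre1*-43, 66.2 and 48.2 in Δ*cre1*-91, and 104, 114 and 249 in the wild type (log2 difference 1.37, edgeR adjusted P = 0.102). The third such gene, 361342 on scaffold 22, had 53.3 and 66.5 CPM in Δ*cre1*-43 and 69.6 and 45.0 in Δ*cre1*-91, ranges that overlapped. The ABC-type exporter 365725 (scaffold 49) had a log2 difference of 2.77 (edgeR adjusted P = 0.0594), with 1 library far above the others, at 68.0 CPM in Δ*cre1*-43 replicate 1, 8.51 in replicate 2, 4.31 and 6.78 in Δ*cre1*-91, and 5.64, 12.9 and 4.73 in the wild type.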
